A study of Mus musculus with 3 samples.

Results

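The genes described are 43 genes of mitosis, grouped by role into kinesins, kinases and cyclins, the spindle checkpoint and anaphase-promoting complex, the centromere and kinetochore, chromosome structure, and the spindle and cytokinesis. They were taken by name from the known machinery of mitosis, and a gene was identified by the RefSeq accession of its probes. Probes matched 41 of the 43, Cenpf and Mki67 being the unmatched genes, and all 41 were among the 13270 genes tested of 16354 matched in all. The tissue was the gonad of male mouse embryos of the MCH line with the genotype Cyp26b1-/-, at embryonic day 12.5 (E12.5), 13.5 (E13.5) or 14.5 (E14.5), with 2 arrays at each stage. All 3 stages carry the knockout, and gonads with a working Cyp26b1, which encodes a P450 enzyme that degrades retinoic acid, were not analysed here. The comparisons therefore show how levels moved with age within the knockout gonad, and not what the knockout did. Gonads were put in RNAlater on dissection, and Cy3-labelled cRNA made from their total RNA was hybridised to 1-colour Agilent arrays. The 2 arrays of a stage are described as biological duplicates, but how many embryos each holds is not given in the sources used here.

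Entry into mitosis is driven by active Cdk1 with cyclin B, and polo-like and Aurora kinases help to build the spindle. Condensin and topoisomerase II compact the chromosomes, kinetochores join them to microtubules, and kinesins move chromosomes and spindle poles. A checkpoint holds back the anaphase-promoting complex until every kinetochore is attached, after which separase cuts cohesin and the cell divides. In the normal fetal testis, germ cells cease to divide at about these stages while Sertoli cells go on dividing. Whether this holds in the knockout gonad was not measured here. A bulk level of these genes covers all cell types of the gonad, and fewer dividing cells and less RNA per cell cannot be told apart in it. The genes are mostly expressed late in the cell cycle. Their promoters are known for CCAAT boxes, bound by the factor NF-Y, and for the cell cycle homology region (CHR), through which the DREAM and MuvB complexes act.

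RefSeq promoter sequences (build GRCm38.p6, from 250 bases before the transcription start to 50 after it) were found for 36 of the 43 genes, some with several starts, which gave 39 promoters. The letters searched were TTTGAA or TTCGAA for the CHR and CCAAT for the box, each on both strands. TTCGAA reads the same on both strands, and a CHR match can share no more than an end base with a CCAAT match. The 7 windows below are the 100 bases before the start of genes that the results turn on, written 5′ to 3′ along the gene, with the letters of a match in capitals. TTCAAA and ATTGG are the matches on the other strand. Kif11, Cdk1, Kif22 and Ube2c fell and hold both motifs, Top2a holds both and did not pass the test, Ccnb1 fell and holds CCAAT alone, and Mad2l1 fell and holds neither.
Kif11: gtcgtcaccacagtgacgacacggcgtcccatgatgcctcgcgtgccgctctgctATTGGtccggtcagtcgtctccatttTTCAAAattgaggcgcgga
Cdk1: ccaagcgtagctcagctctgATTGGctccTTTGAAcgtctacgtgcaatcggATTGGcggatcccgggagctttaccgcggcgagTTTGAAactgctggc
Kif22: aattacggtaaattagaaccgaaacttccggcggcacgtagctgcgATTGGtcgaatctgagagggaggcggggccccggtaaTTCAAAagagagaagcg
Ube2c: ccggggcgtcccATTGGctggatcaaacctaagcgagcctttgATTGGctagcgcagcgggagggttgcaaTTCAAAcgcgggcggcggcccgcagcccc
Top2a: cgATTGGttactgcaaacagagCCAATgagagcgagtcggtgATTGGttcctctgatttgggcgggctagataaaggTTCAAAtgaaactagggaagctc
Ccnb1: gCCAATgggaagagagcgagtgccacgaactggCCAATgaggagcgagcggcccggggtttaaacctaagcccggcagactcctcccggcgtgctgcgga
Mad2l1: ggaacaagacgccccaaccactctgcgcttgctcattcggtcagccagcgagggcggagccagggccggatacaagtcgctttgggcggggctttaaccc

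These windows lie at chr19:37376282-37376381 on the plus strand (Kif11), chr10:69352913-69353012 on the minus strand (Cdk1), chr7:127042421-127042520 on the minus strand (Kif22) and chr2:164769829-164769928 on the plus strand (Ube2c). The others lie at chr11:99024190-99024289 on the minus strand (Top2a), chr13:100786487-100786586 on the minus strand (Ccnb1) and chr6:66535121-66535220 on the plus strand (Mad2l1). In the Kif11 window the CHR match begins 19 bases before the start and the CCAAT match 45 bases before it. The last CHR match of Cdk1, Kif22, Ube2c and Top2a begins 15, 17, 29 and 23 bases before the start.

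A CHR match stood in the promoters of 28 of the 36 genes (77.8%), against 21.7% of all 27025 genes with a promoter in the table. CCAAT stood in 27 of the 36 (75%), against 41.1% of all genes. Both together were in 69.2% of the 39 member promoters and in 7.52% of all 32851 promoters. The place of the CHR differed more than its presence: a match within 50 bases of the start was found in 71.8% of the member promoters and in 5.31% of all promoters. For genes of DNA replication, 32 promoters of 28 genes were found, and 6.25% of these had such a match, although 59.4% had CCAAT. The distance from a CHR match to the nearest CCAAT match before it was counted between their first bases, keeping the smallest per promoter. Its median was 32 bases in 27 member promoters and 58 bases in 1318 of all promoters. Mean GC content was 58.9% in the member promoters and 53.8% in all.

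The shares were also set side by side for members that fell and for the others, with no test. Of the promoters of members lower at E14.5, described next, 83.3% held a CHR match (20 of 24) and 75% held CCAAT. Among the remaining member promoters, which include those of the unmeasured Cenpf and Mki67, the shares were 73.3% (11 of 15) and 80%. Neither motif was in the 300 bases of Mad2l1 and Ncaph, which fell, or of Kif18a, Birc5 and Nuf2, which did not pass the test. A match is a description of letters and no proof of a bound site, and a missing match says only that these letters are not in this window.

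**Figure D1:**
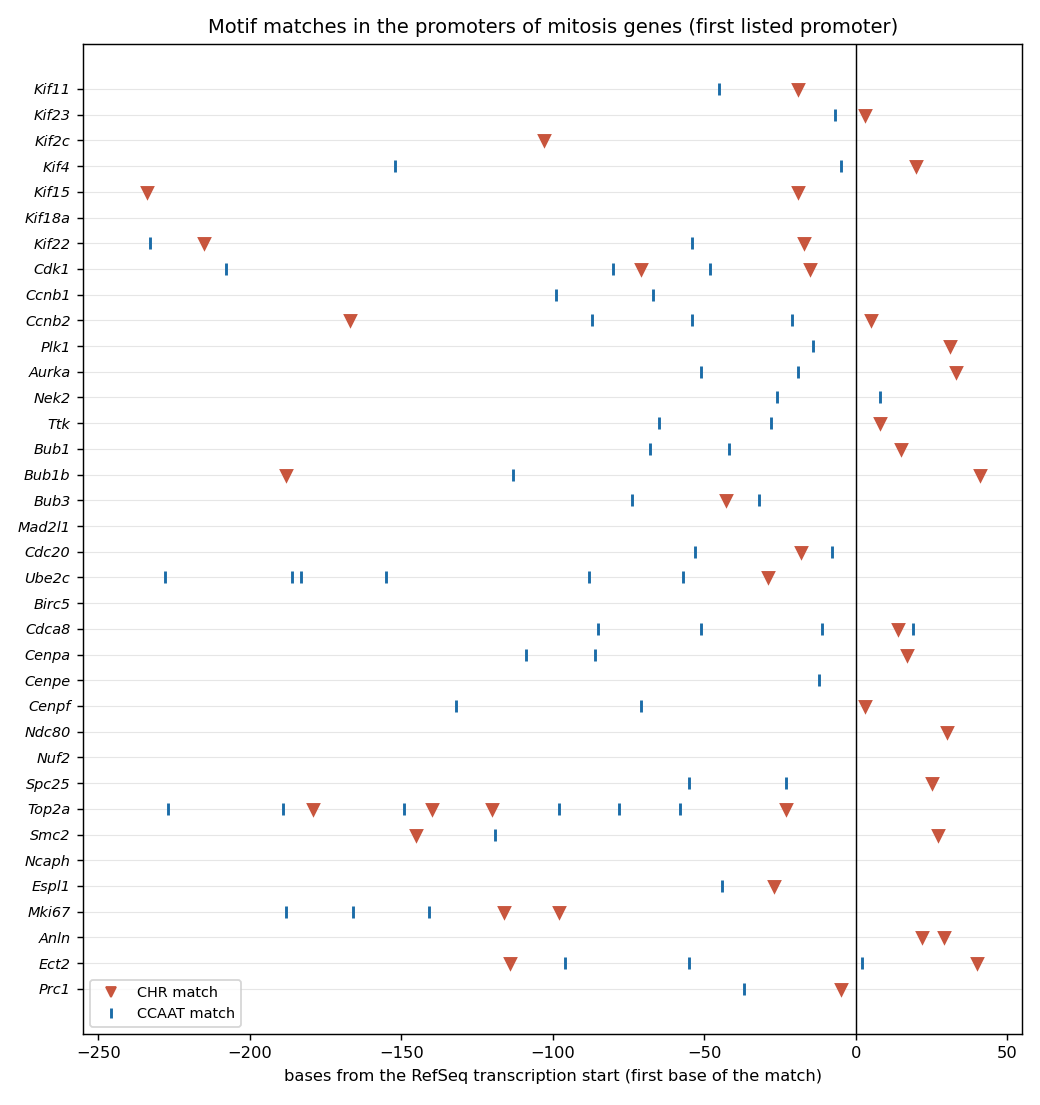
Positions of CHR matches (triangles) and CCAAT matches (bars) in the first listed promoter of each of 36 mitosis genes, in bases from the RefSeq transcription start (vertical line). CHR matches lie mostly within 50 bases of the start, and CCAAT matches mostly before it.

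The share of probes well above background ran from 65.3% to 70.1% over the 6 arrays, with 0 saturated spots, and duplicate arrays had Pearson r of 0.9934, 0.9956 and 0.994 across genes, which are not independent replicates. The probe of the targeted gene, Cyp26b1, gave a signal above background on each of the 6 arrays, at levels of 4.92 and 4.69, 4.26 and 4.16, then 4.23 and 3.78. Whether it lies in the deleted part is not given in the sources used here, so it checks no label. Levels here are log2 of a gene's brightest probe over the 75th percentile of its array. They may be set against each other between arrays but not between genes. The slide that held the E12.5 arrays held none of the 4 later ones, and the slides were scanned apart, so stage and slide cannot be told apart in any comparison with E12.5. The E13.5 and E14.5 arrays shared a slide. The 3 comparisons share arrays and are not independent of each other.

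Most mitosis genes were lower at E14.5 than at E12.5. With limma (Benjamini-Hochberg adjusted p under 0.05 over all genes tested, no fold minimum) 25 of 41 were lower, 1 was higher (Bub1) and 15 did not pass. Of all genes tested 20.8% were lower and 25.5% higher. The median change of the members was -0.52 and that of all genes 0.03. The size was modest: 4 members passed 2-fold (Kif11, Ttk, Smc2 and Cdk1), and the changes ran from -1.45 to 0.38. In 33 of the 41 (80.5%) both E14.5 arrays lay below both E12.5 arrays, against 35.6% of all genes. Counted by probe, 33 of the members' 58 probes were lower and 1 was higher, against 22.3% lower of the 18755 probes tested. Without the second array of E12.5, or without that of E14.5, fewer members were called lower, and fewer genes in all were called. The median change of the members was then -0.48 or -0.49, and that of all genes 0.03 or 0.06.

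At E13.5, 11 of the 41 were already lower than at E12.5, 1 was higher (Smc4) and 29 did not pass. Of all genes 13.3% were lower and 18.4% higher, and the median change was -0.26 in the members and 0.05 in all genes. All 11 were among those lower at E14.5, where 14 more passed. In 26 members (63.4%) both E13.5 arrays lay below both E12.5 arrays, against 31.7% of all genes. These calls at E13.5 rest on few arrays and in part on the choice of probe. With the mean or median of probes 9 or 8 members were lower, while 4153 or 4181 genes in all were called, against 4197. Fewer members were called lower, and fewer genes in all were called, when any 1 array was left out. The median change of the members then ran from -0.30 to -0.16, and that of all genes from 0.04 to 0.06. Kif11 was the only member that passed under every alternative setting with no fold minimum.

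From E13.5 to E14.5, the step within 1 slide, 0 members passed limma's adjusted threshold, as did 0.0528% of all genes (7 of 13270). At an unadjusted p under 0.05, 11 of 41 were lower (26.8%) and 0 higher, against 7.51% and 10.9% of all genes. The 11 were Ccnb2, Ccnb1, Spc25, Espl1, Cdk1, Aurka, Plk1, Ube2c, Kif11, Smc2 and Mad2l1. The median change was -0.22 in the members and -0.02 in all genes, 37 of 41 were below 0, and both E14.5 arrays lay below both E13.5 arrays in 27 (65.9%), against 29.1% of all genes. Stage means fell at both steps in 27 members (65.9%) and in 28.4% of all genes.

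**Figure D2:**
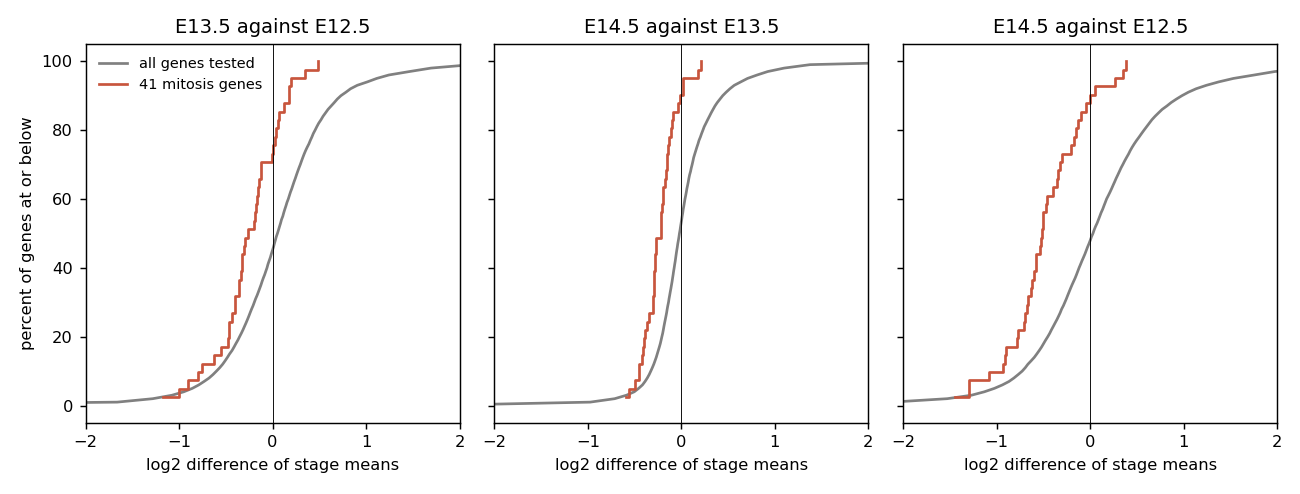
Cumulative share of genes (vertical, percent) at or below a given log2 difference of stage means (horizontal) for the 41 mitosis genes and for all 13270 genes tested, in each of the 3 comparisons. The line of the mitosis genes lies to the left of the line of all genes over most of its range, with medians of -0.26, -0.22 and -0.52.

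Among the kinesins, motor proteins that walk along or take apart microtubules, 5 of 8 were lower at E14.5 and 0 higher, with a median of -0.60. Of all genes tested 20.8% were lower and 25.5% higher at E14.5. Kif11, the motor that pushes spindle poles apart, had E12.5 levels of 0.41 and 0.46, E13.5 levels of -0.70 and -0.76, and E14.5 levels of -0.98 and -1.05. The duplicates lay close together and the stages did not overlap. Its change was -1.17 ± 0.10 (SE, n = 2 arrays a stage, adjusted p = 0.00258) by E13.5 and -1.45 ± 0.10 (adjusted p = 0.000621) by E14.5, or 2.73-fold lower. A dimmer second probe, not well above background on 1 E14.5 array, changed by -0.86 (adjusted p = 0.0299).

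Kif22, a motor that binds chromosome arms, went from 5.09 and 4.74 through 4.22 and 4.11 to 4.09 and 3.94, a change of -0.90 ± 0.15 (adjusted p = 0.00572). Nearly all of that lay between E12.5 and E13.5 (-0.75, adjusted p = 0.0161). Kif2c, which takes microtubule ends apart at the centromere, went from 0.38 and 0.32 through -0.01 and -0.08 to -0.19 and -0.34. Each stage lay below the one before, and the change by E14.5 was -0.62 ± 0.11 (adjusted p = 0.00691). Kif20a, a motor of the central spindle, had 4.62 and 4.39, then 4.31 and 4.03, then 3.90 and 3.84. It passed at E14.5 and not before, at -0.63 ± 0.14 (adjusted p = 0.0153). Kif15, which can stand in for Kif11 at the spindle, changed by -0.58 (adjusted p = 0.0153) on its brightest probe and by -0.19 (adjusted p = 0.41) on the other, and did not pass with the mean of both.

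The other 3 kinesins did not pass. Kif18a, which limits chromosome swings at the metaphase plate, changed by 0.05, and Kif4, which works with condensin and at the midzone, by -0.15. Kif23, a part of the centralspindlin complex of cytokinesis, changed by -0.13 on its brightest probe and by 0.31 on the other. Its levels were 1.83 and 1.85, then 1.37 and 1.63, then 1.68 and 1.75, so the lowest arrays were those of E13.5.

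The kinases and cyclins were lower in 8 of 9 cases at E14.5, against 20.8% of all genes, with a median of -0.66. Cdk1, the kinase that drives entry into mitosis, stood at 3.23 and 3.37 on the E12.5 arrays, then 2.85 and 2.49, then 2.19 and 2.24. All later arrays lay below both E12.5 arrays, and both E14.5 arrays below both of E13.5. The change was -0.63 ± 0.15 (adjusted p = 0.0252) by E13.5 and -1.08 ± 0.15 (adjusted p = 0.00313) by E14.5, or 2.12-fold lower. Ccnb1, its cyclin B partner, went from 2.38 and 2.48 through 2.07 and 1.82 to 1.56 and 1.48, also without overlap. Its change by E14.5 was -0.91 ± 0.13 (adjusted p = 0.00339), and its other probes gave -0.55 and -0.40, both past the threshold. At E13.5 the 3 probes differed more, at -0.48, -0.12 and 0.01, and only the first passed.

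Ccnb2, the other mitotic cyclin B, had 4.90 and 5.01, then 5.19 and 4.86, then 4.58 and 4.34. The first 2 stages overlapped, and the change was 0.06 by E13.5 and -0.50 ± 0.16 (adjusted p = 0.0427) by E14.5. Plk1, the polo-like kinase of entry and spindle building, had 4.26 and 4.14, then 4.35 and 4.03, then 3.84 and 3.65. It changed by -0.01 by E13.5 and by -0.46 ± 0.15 (adjusted p = 0.0463) by E14.5. The calls of both were lost without any 1 of the 4 arrays of E12.5 and E14.5 (adjusted p from 0.0531 to 0.184).

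Aurka, the Aurora kinase of the spindle poles, went from 4.46 and 4.53 through 4.26 and 4.0 to 3.81 and 3.64, a change of -0.77 ± 0.13 (adjusted p = 0.00656). Aurkb, the Aurora kinase of the centromere, changed by -0.66 ± 0.12 (adjusted p = 0.00821). Nek2, which parts the centrosomes, went from 1.5 and 1.46 through 1.17 and 0.93 to 0.79 and 0.77, or by -0.70 ± 0.12 (adjusted p = 0.00642). None of these 3 overlapped between any of the stages. Ccna2, the cyclin of S phase and early mitosis, changed by -0.60 (adjusted p = 0.0143). Cdc25c, a phosphatase that switches Cdk1 on, was the member of this group that did not pass, at -0.17 (adjusted p = 0.407).

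**Figure D3:**
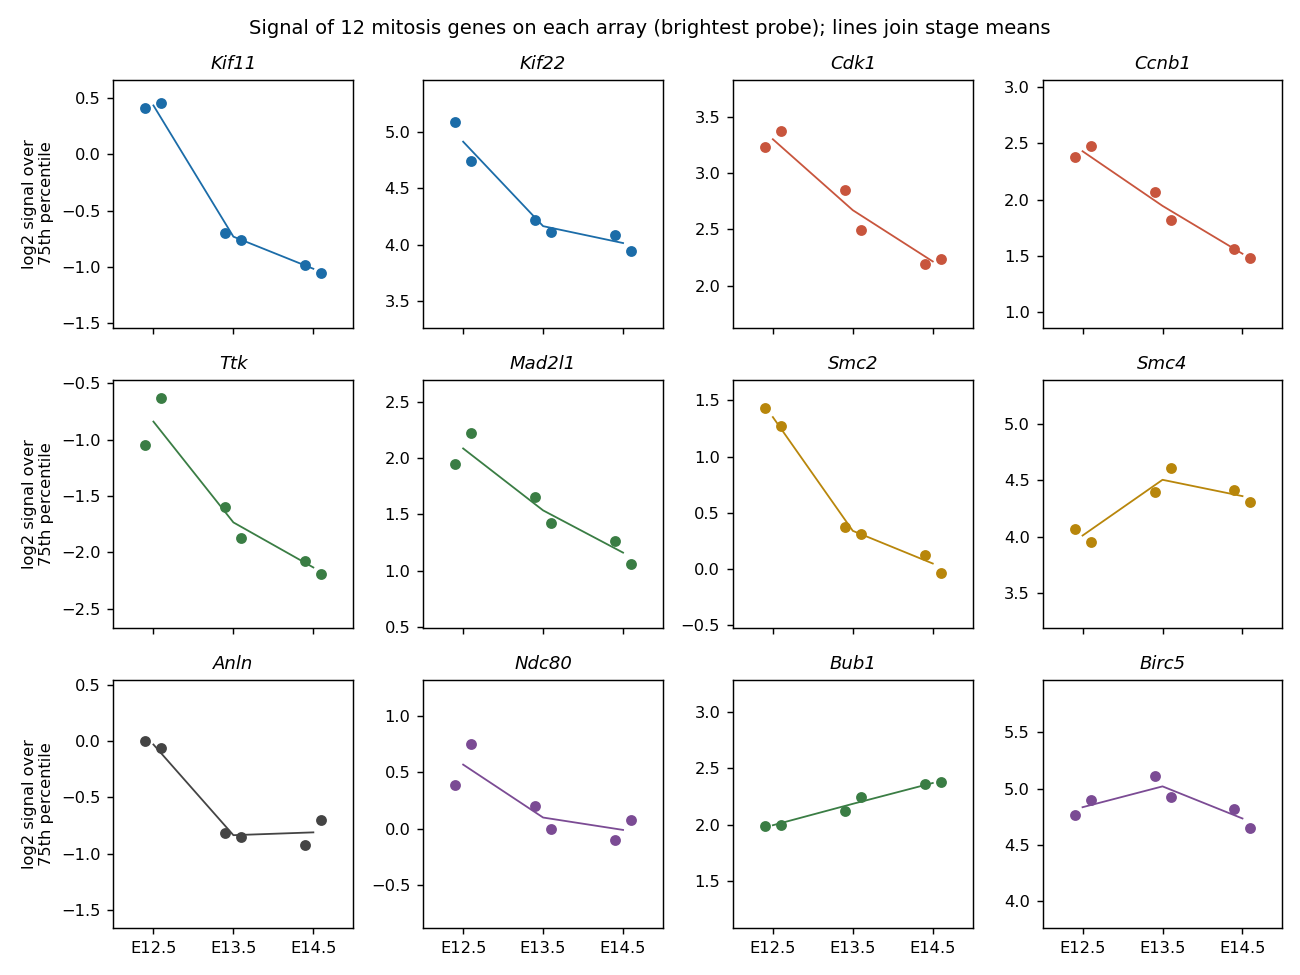
Log2 signal over the array's 75th percentile (vertical) at E12.5, E13.5 and E14.5 for 12 mitosis genes, with 1 point per array, 2 arrays a stage, lines through the stage means and a vertical span of the same size in every panel. The brightest probe of each gene is shown. On it Kif11, Smc2 and Anln had most of their change by E13.5, which some other probes of Smc2 and the other of Anln did not. Cdk1, Ccnb1 and Mad2l1 had lower means at each stage, Bub1 rose by 0.38 by E14.5, and Birc5 overlapped between E12.5 and E14.5.

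In the spindle checkpoint and anaphase-promoting complex 4 of 7 were lower at E14.5, 1 was higher and 2 did not pass, with a median of -0.68. The shares of all genes were 20.8% lower and 25.5% higher. Ttk, the kinase that starts checkpoint signalling at the kinetochore, had -1.05 and -0.63, then -1.60 and -1.87, then -2.08 and -2.19. No stage overlapped another, and the change was -0.90 ± 0.18 (adjusted p = 0.0153) by E13.5 and -1.30 ± 0.18 (adjusted p = 0.00308) by E14.5, or 2.46-fold lower. Mad2l1, the Mad2 protein that holds Cdc20, went from 1.95 and 2.22 through 1.65 and 1.42 to 1.26 and 1.06. That is a change of -0.93 ± 0.15 (adjusted p = 0.00554), again with no overlap.

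Bub3, which brings Bub1 and BubR1 to kinetochores, changed by -0.68 ± 0.13 (adjusted p = 0.0102) on its brightest probe, with 3.95 and 4.26 at E12.5 and 3.42 and 3.44 at E14.5. Its second probe stayed within its spread, at -0.05 (adjusted p = 0.793), and the mean of both gave -0.36 (adjusted p = 0.0612). Ube2c, the ubiquitin-conjugating enzyme of the anaphase-promoting complex, had 3.03 and 3.49, then 3.28 and 3.0, then 2.70 and 2.40. Only E14.5 stood clear of E12.5, at -0.71 ± 0.20 (adjusted p = 0.0321), and the call was lost without the second array of E12.5 (-0.48, adjusted p = 0.127) or of E14.5 (-0.56, adjusted p = 0.14).

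Bub1, a checkpoint kinase of the kinetochore, moved the other way, from 1.99 and 2.0 through 2.12 and 2.25 to 2.36 and 2.38. The stages did not overlap, and the change by E14.5 was 0.38 ± 0.10 (adjusted p = 0.0291). The call was lost with median scaling (0.21, adjusted p = 0.221) and without any 1 array (0.0549 to 0.102), while the value stayed above 0 in each. Bub1b (BubR1), its relative in the checkpoint complex, changed by 0.00, and Cdc20, which activates the anaphase-promoting complex, by -0.36 (adjusted p = 0.0634). Values in this group thus ran from -1.30 for Ttk to 0.38 for Bub1, and the differences between genes were not tested.

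At the centromere and kinetochore 2 of 8 were lower at E14.5, 0 higher and 6 did not pass, and the median was -0.33. That count is close to the 20.8% of all genes called lower. Those lower were Ndc80 and Spc25, both subunits of the NDC80 complex that grips microtubules. Ndc80 had 0.39 and 0.75, then 0.20 and 0.00, then -0.10 and 0.08, so E12.5 stood above the later arrays. Its change by E14.5 was -0.58 ± 0.16 (adjusted p = 0.0306). Spc25 had 2.52 and 2.76, then 2.78 and 2.55, then 2.28 and 2.05, with only E14.5 standing apart, at -0.47 ± 0.15 (adjusted p = 0.0456). The call of Spc25 was lost without any 1 array (adjusted p from 0.0564 to 0.187), and that of Ndc80 without the second array of E12.5 (0.116) or either array of E14.5 (0.119 and 0.0642). Nuf2, the partner of Ndc80 in that complex, changed by -0.30 and did not pass (adjusted p = 0.15).

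The chromosomal passenger proteins, which take Aurkb to its sites, did not pass at E14.5. Birc5 (survivin) had 4.77 and 4.90, then 5.11 and 4.93, then 4.82 and 4.65, and changed by -0.10. Cdca8 (borealin) changed by -0.04 and Incenp by -0.34 (adjusted p = 0.057). Incenp passed under 3 of 16 alternative settings with no fold minimum. Aurkb did pass, but its difference from these partners was not tested. Cenpa, the histone variant of the centromere, changed by -0.32 ± 0.24, with its E12.5 arrays at 1.1 and 1.74. Cenpe, the kinetochore's own kinesin, changed by -0.50 (adjusted p = 0.0695) on its brightest probe, but its other probe went from -1.45 and -1.92 through -3.08 and -3.22 to -3.49 and -3.46. On that probe the change was -1.79 ± 0.17 (adjusted p = 0.00117), and the mean of both probes passed at -1.15 (adjusted p = 0.00415).

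Of the genes of chromosome structure 2 of 5 were lower at E14.5 and 0 higher, against 20.8% and 25.5% of all genes. The median was -0.21, and members moved in both directions. Smc2, a core subunit of condensin, had 1.43 and 1.27, then 0.37 and 0.31, then 0.13 and -0.03. The later arrays lay well below both E12.5 arrays, and the change was -1.0 ± 0.12 (adjusted p = 0.00414) by E13.5 and -1.30 ± 0.12 (adjusted p = 0.00101) by E14.5. Its 3 other probes gave -0.72, -1.72 and -0.72 at E14.5, of which the last 2 passed. At E13.5 only 1 of the 3 passed, and the median of all 4 probes there was -0.18 (adjusted p = 0.575).

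Smc4, the partner of Smc2 in the condensin ring, went from 4.07 and 3.95 through 4.40 and 4.61 to 4.41 and 4.31. Both later stages lay above E12.5, at 0.49 ± 0.12 (adjusted p = 0.0289) by E13.5 and 0.35 ± 0.12 (adjusted p = 0.0595) by E14.5. The call at E13.5 was lost without any 1 array of E12.5 or E13.5 (adjusted p from 0.0618 to 0.161). Ncaph, a condensin I subunit, changed by -0.52 ± 0.12 by E14.5 (adjusted p = 0.0148), with 1.14 and 1.31 at E12.5 and 0.69 and 0.71 at E14.5. Of the 3 condensin genes, Smc2 and Ncaph were thus lower at E14.5, while Smc4 lay above its E12.5 level without passing the threshold there.

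Top2a, the topoisomerase that untangles sister chromatids, had 1.51 and 1.74, then 2.0 and 1.96, then 1.76 and 2.01, a change of 0.26 (adjusted p = 0.177) by E14.5. Its second probe was higher at E13.5 by 0.56, which passed, and was at -0.20 by E14.5 (adjusted p = 0.197), so its probes did not give 1 direction. Espl1 (separase) changed by -0.21 (adjusted p = 0.186).

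All 4 genes of the spindle and cytokinesis were lower at E14.5, against 20.8% of all genes, with a median of -0.53. Anln (anillin), a scaffold of the contractile ring, had 0.00 and -0.06, then -0.82 and -0.85, then -0.92 and -0.70. Its change was -0.80 ± 0.12 (adjusted p = 0.00703) by E13.5, and the E14.5 arrays overlapped those of E13.5, at -0.78 ± 0.12 from E12.5 (adjusted p = 0.00434). A much dimmer second probe of Anln changed by -0.01 (adjusted p = 0.958). Ect2, which activates RhoA at the cleavage plane, changed by -0.54 ± 0.15 (adjusted p = 0.0284), with 2.83 and 2.67, then 2.66 and 2.47, then 2.36 and 2.06. Prc1, which bundles midzone microtubules, changed by -0.53 (adjusted p = 0.0185), from 3.89 and 3.95 to 3.43 and 3.35.

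Tpx2, an activator of Aurka, changed by -0.40 ± 0.13 (adjusted p = 0.0438), from 2.41 and 2.25 to 1.86 and 2.0, a call lost without any 1 array (adjusted p from 0.065 to 0.161). The call of Prc1 was lost without either array of E12.5 or the second of E14.5 (adjusted p from 0.0552 to 0.0813), and so was that of Ect2 (0.0586 to 0.124). Ncaph was lost without the second array of E12.5 or either of E14.5 (0.0553 to 0.0618), and Kif20a without the first of E12.5 or the second of E14.5 (0.0661 and 0.0674). Without the second array of E12.5 or of E14.5, the calls of Ccna2 (0.059 and 0.0641) and Kif15 (0.0566 and 0.0716) were lost. Of the 26 members called at E14.5, 12 passed under every alternative setting with no fold minimum: Anln, Aurka, Aurkb, Ccnb1, Cdk1, Kif11, Kif22, Kif2c, Mad2l1, Nek2, Smc2 and Ttk.

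**Figure D4:**
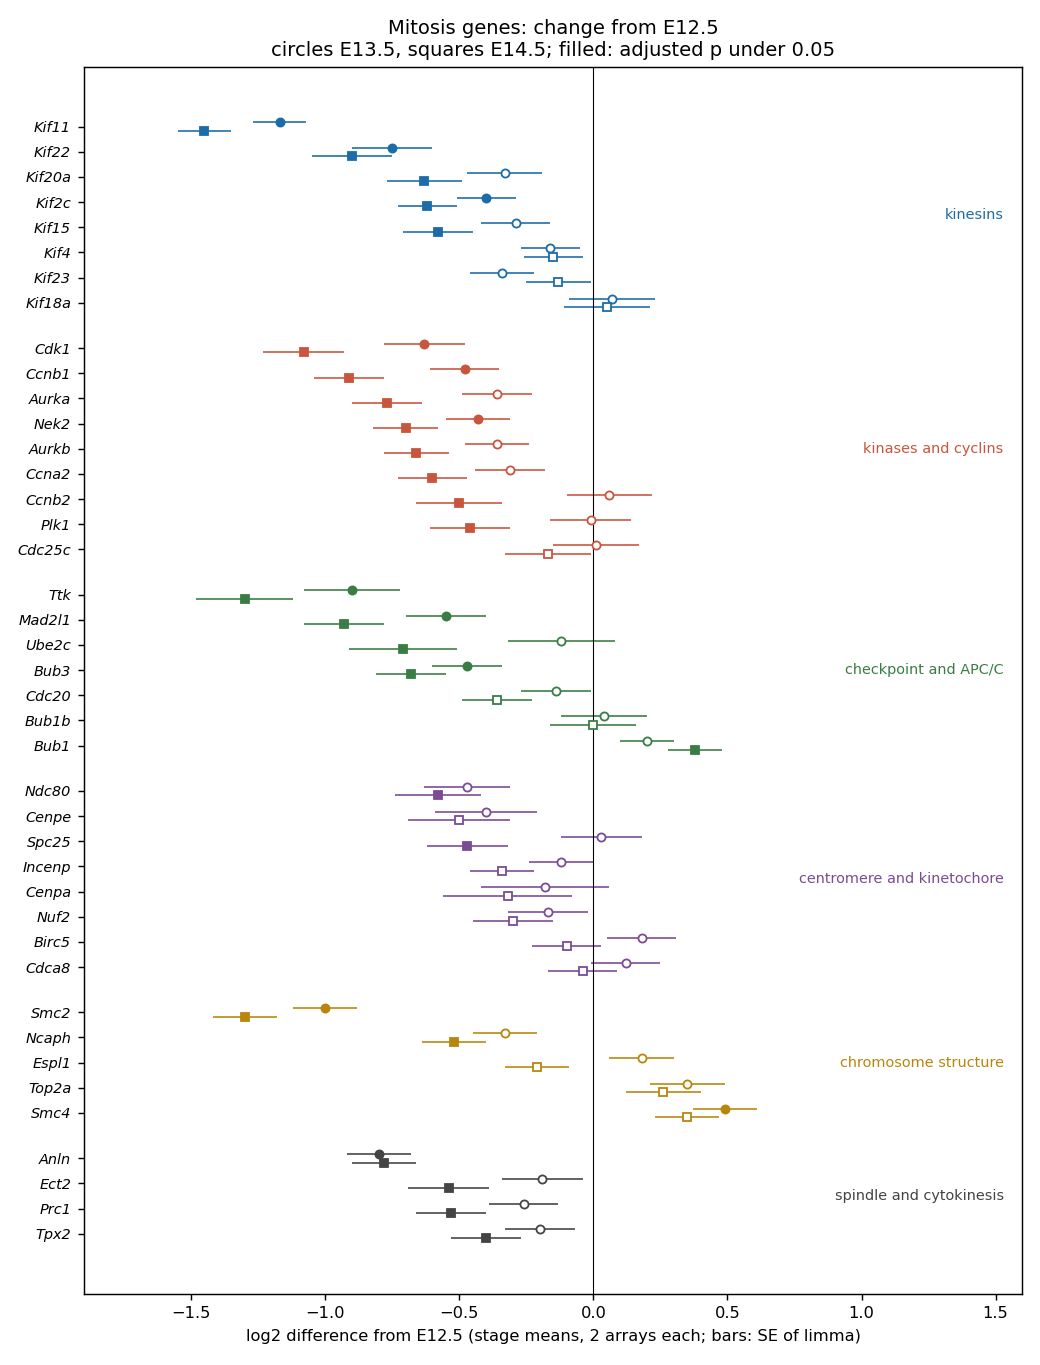
Log2 difference from E12.5 at E13.5 (circles) and E14.5 (squares) for the 41 measured mitosis genes by role, with the standard error of limma from 2 arrays a stage, filled where the adjusted p was under 0.05. Most squares lie left of 0, with Kif11 at -1.45, while Bub1 at 0.38 is the filled square to the right.

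Further genes of mitosis were listed by the same roles, and their counts at E14.5 stand beside 20.8% of all genes lower and 25.5% higher. Of 116 listed, 100 were tested, and 37 were lower at E14.5, 6 higher and 57 did not pass, with a median of -0.23. At E13.5, 20 of the 100 were lower and 5 higher, against 13.3% and 18.4% of all genes. Among 16 other kinases and entry factors 6 were lower and 0 higher, led by Plk4, the kinase of centriole duplication (-1.08), Melk (-0.70) and Bora, a cofactor for Plk1 activation (-0.64). Other checkpoint and anaphase-promoting complex genes were lower in 3 of 21 cases and higher in 1, both below the shares of all genes. Fbxo5 (Emi1), an inhibitor of that complex, changed by -1.49, Zwilch and Spdl1, which act at kinetochores, by -0.71 and -0.62, and Anapc2, a core subunit, by 0.45.

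Of 27 other centromere and kinetochore genes 11 were lower and 1 was higher. Ska3 and Ska2 of the SKA complex, which couples kinetochores to microtubules, changed by -1.26 and -1.04, Cenpu by -0.92, and Cenpk by 0.49. In 13 other condensin and cohesin genes 5 were lower and 2 higher. Smc3, a core cohesin subunit, changed by -0.41, Rad21, the cohesin subunit that separase cuts, by -0.40 (a second probe gave -1.68), Mau2, of the cohesin loader, by 0.39 and Ncapg2, of condensin II, by 0.34. Other spindle and cytokinesis genes were lower in 12 of 21 cases and higher in 1, with Depdc1a at -1.12, Aspm at -0.93 (a second probe at 0.15), Rhoa at -0.89 (a second probe at 0.36) and Cit at 0.62. Of 2 other mitotic kinesins tested 1 passed, Kif18b, at 0.54.

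Transcription factors that act on mitotic genes were lower in 8 of 19 cases and higher in 2, against 20.8% and 25.5% of all genes. Tfdp1, the dimer partner of E2F factors, changed by -1.20, the repressor E2f8 by -1.18, and Nfyb, a subunit of the CCAAT-binding factor NF-Y, by -1.01. Rb1 changed by 0.61 and Lin37, a MuvB subunit, by 0.49. Of 31 DNA replication genes 10 were lower, 0 higher and 21 did not pass, with a median of -0.30. Rrm2 and Tyms, which make nucleotides for DNA, changed by -0.88 and -0.78, and Pcna, the sliding clamp, by -0.78.

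Meiotic relatives of mitotic genes went the other way, with 5 of 6 higher at E14.5 and 1 lower, against 25.5% and 20.8% of all genes. Ccnb3, a cyclin of the B type, was not well above background at E12.5 and was so on all 4 later arrays, at -2.99 and -2.42, then -1.95 and -0.80. It was at least 28.8-fold higher at E14.5 than at E12.5, a bound that was not tested. The floor on each E12.5 array is the higher of the dimmest signal still well above background there and the signal of Ccnb3 itself. Ccnb3 entered the limma test only through the later stages, so its call among the 5 higher is no test of the bound. Rec8 and Stag3, meiotic forms of cohesin subunits, changed by 2.52 and 1.94, and Smc1b, another, by 1.41. Ccna1, the germ cell cyclin A, changed by 0.80 and Aurkc, the germ cell Aurora kinase, by -1.20.

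Markers of the gonad's cell types were counted too, and their counts at E14.5 stand beside 20.8% of all genes lower and 25.5% higher. Sums of linear levels weigh bright probes most and may be set against each other only between arrays. The summed linear level of the 41 mitosis genes was 426 and 427, then 411 and 367, then 338 and 308. For 11 germ cell markers it was 41.6 and 51.9, then 77.5 and 82.2, then 79.9 and 67.1, with 6 higher at E14.5, 1 lower and 4 not past the threshold. Nanos2, among the 11, was not well above background at E12.5 and entered the test only through the later stages. Sertoli markers summed to 119 to 196 over the 6 arrays, lowest at E12.5. Of the 9, 2 were higher at E14.5 and 2 lower, the lower being Sox9 (-1.5) and Fgf9 (-2.15). The changes of the 9 ran from -2.15 to 2.58, with a median of -0.07. All 6 markers of fetal Leydig cells, the steroid-making cells of the fetal testis, were higher, and their sum went from 4.18 and 5.25 through 50 and 59.3 to 94.9 and 130.

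Blood, vessel and mesonephric markers were measured too, and their counts stand beside the same shares of all genes. Of 7 erythroid markers 4 were lower, Hbb-bh1 by -4.15, Hbb-y by -2.86, Klf1 by -2.70 and Hba-x by -2.10, and Hba-a1 was higher by 0.49. The erythroid sum was 210 and 257, then 213 and 180, then 160 and 182. Of 5 interstitial markers 0 passed in either direction at E14.5 by limma (1 lower and 0 higher at an unadjusted p under 0.05), of 6 endothelial markers 1 was lower (Kdr, -0.86), and of 4 macrophage markers 2 were higher. Of 7 markers of the mesonephros and its ducts, which adjoin the gonad, 3 were lower and 1 higher, their sum went from 1.06 and 1.41 at E12.5 to 0.695 and 0.351 at E14.5, and Ret was above background on 0 arrays. The part of these shifts in cell types in the fall of the mitosis genes was not tested.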

How the data were processed

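The 6 scanner files hold 1-colour Agilent arrays, 2 for each of 3 stages. Per the file headers the deposited spot intensity came from Agilent Feature Extraction (version 9.5, per the submitters' processing notes) and was background-subtracted but not scaled between arrays. A deposited table of the authors holds a linear ratio per probe and stage, whose reference and centring are not stated, and served as an alternative. Log2 signals had each array's 75th percentile subtracted. Outlier spots were left out, repeated spots averaged, and 21 of 41174 probes missing on an array dropped. RefSeq accessions named 22943 probes, and 18210 stayed unnamed. The brightest probe stood for a gene. Genes well above background on both arrays of a stage were tested with limma 3.58.1 in R 4.3.3 (lmFit and eBayes, two-sided, 6 arrays, 3 residual degrees of freedom), and the scripts were tested on simulated data. The p-values measure the spread between duplicates, and the number of arrays limits the precision. Per-array values are given for up to 4 passing members of each role and those against their role or with discordant probes. Those of Ccnb2, Plk1, Kif23, Birc5 and Cenpa were added after their values were seen. Up to 3 genes of each further list are named by largest change, besides genes that spell out a small count. The members and lists were chosen with earlier results of these data known. Alternatives covered background correction, scaling, filters, probe choice, variance prior, replicate block, fold minimum and leaving out each array.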

Additional observations from a re-analysis of the deposited data

How the results depend on the processing

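Of the members' changes, 0 reversed a call, and 58 of 2132 values changed sign with no call on either side. At E13.5 the 11 lower members became 5 with no background filter, 7 with the replicate block, 2 with a 2-fold minimum and 3 to 7 when 1 array was left out. The 1 higher member became 0 with median scaling, no filter or a 2-fold minimum, 2 with the mean or median of probes or a trended robust prior, and 0 to 1 without 1 array. At E14.5 against E12.5 the 25 lower became 4 with a 2-fold minimum and 14 to 23 without 1 array. The 1 higher became 2 with quantile normalization or the trended prior, and 0 with median scaling, no filter, a 2-fold minimum or any array left out. Median scaling moved the median of all genes to -0.13 and that of the members to -0.69, and the higher share of all calls from 55.1% to 39.5%, and from 58.0% to 47.2% at E13.5. In the authors' deposited table the members' median from E13.5 to E14.5 was -0.34, with all genes at -0.13.

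All genes called numbered 4197 at E13.5 (1156 with a 2-fold minimum, 1397 to 3937 without 1 array) and 6146 at E14.5 against E12.5 (1900 and 3897 to 5348). From E13.5 to E14.5 the 7 became 391 with normexp, 346 with the trended prior, 90 with median scaling, 3 with every probe its own row, 1 with the replicate block, 0 with no filter, the all-array filter, the mean of probes or the 4 later arrays alone, and 0 to 30 without 1 array. No member passed in that step under any of these. Differences between array 1 and array 2 correlated across genes at -0.037 and -0.063 between E12.5 and the later stages. Between E13.5 and E14.5, which shared a slide, the correlation was 0.227. Array numbers thus did not pair the arrays of all 3 stages, and the replicate block served only as an alternative. A slide block could not be fitted, because stage fixes the slide. With an array left out, its stage rests on 1 array assumed to vary like the others.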
